A study of Mus musculus with 6 samples.

Results

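The endothelial marker genes are 10 genes typical of the cell layer that lines blood vessels, followed here in gonadal epithelium dissected from mouse fetuses: Pecam1, Kdr, Flt1, Tek, Tie1, Emcn, Egfl7, Esam, Eng and Cd34. They were taken as every probe set whose annotated gene symbol is exactly 1 of these names, which gave 17 of the 45101 probe sets on the array. Flt1 and Egfl7 were read by 4 probe sets each, Eng by 2 and the other genes by 1 each. Wild-type (+/+) and Emx2 KO (-/-) fetuses were compared at E10.5, Emx2 being a homeobox gene that the urogenital system needs. Each of the 3 pools per genotype joined tissue of 3 fetuses, cut from 30 µm frozen sections by laser microdissection, and was hybridised to its own array. Strain, litter and sex of the fetuses are not given in the labels. A p-value here reflects only spread among these pools, which limma's fit estimates in part from other probe sets of like intensity. The single probe set of Emx2 read 1302, 2120 and 1727 (wild-type) against 1678, 1480 and 1746 (KO) and did not pass (adjusted p = 0.916 in limma's fit); whether it lies in the deleted part is not known here, so it checks no label.

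Endothelial cells respond to vascular endothelial growth factors through the receptors Kdr and Flt1 and to angiopoietins through Tek, with Tie1 as its partner. Eng is a co-receptor for ligands of the TGF beta family. Pecam1 and Esam are adhesion molecules of endothelial junctions, Emcn and Cd34 are sialomucins of the vessel surface, and Egfl7 is a protein that endothelial cells secrete into the matrix. At this stage vessels run through the mesenchyme beneath the coelomic epithelium, so these genes mark a cell type other than the one the dissection aimed at. Several of them, Cd34 and Pecam1 among these, are also made by blood progenitors.

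Tek rose in the KO pools by 1.29 on the log2 scale, and none of the tested endothelial probe sets fell. One of the 4 probe sets of Egfl7 also passed, at 0.51, but the mean over the 4 did not. Emcn passed at 1.39, with a wild-type mean too dim for the test on its own, so that it was tested only through its KO signal and its call is given as a description. Values are scaled intensities, in which each array was brought to a common level, and a probe set was tested where its mean over the 6 arrays lay among the upper 60% (above an intensity of 26.4, here called the dim limit). Of the 17 probe sets, 13 were tested with limma, and 3 passed at an adjusted p of 0.05, all higher in the KO pools and Emcn among them, beside 2.75% of all 27022 tested probe sets called higher and 1.93% called lower. At an unadjusted p under 0.05, 8 were higher and 0 lower, against 9.86% and 7.45% of all tested probe sets. These 8 also hold Emcn, tested only through its KO signal. Over all 17 probe sets the log2 fold change (KO minus wild-type) was positive in 15 (50.9% of all tested probe sets had a positive value), its median 0.50 and its range −0.44 to 1.39, while the median over all tested probe sets was 0.01. The 3 KO values lay above the 3 wild-type values in 9 of the 17, in 8 of them among the tested (again with Emcn), and below them in 0. The same separation upwards was seen in 12% of all tested probe sets and downwards in 10%. Several of the separated probe sets read the same gene, Egfl7 or Flt1. With each of the 10 genes read by its brightest probe set, 4 were separated upwards and 0 downwards. The 10 include 2 genes not tested, and a share of separated genes was not computed, the 12% and 10% being of probe sets. Of the 8 genes tested in this way, 5 were higher and 0 lower at an unadjusted p under 0.05 in limma's test. The shares of all tested genes were 9.02% and 9.15%. Emcn is in both counts. The genes, and the lists read further below, were chosen with earlier results of these data known. Shares set beside their counts are therefore a description and not a test. In bulk tissue a different number of endothelial cells and a different amount of RNA per cell cannot be told apart.

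**Figure D1:**
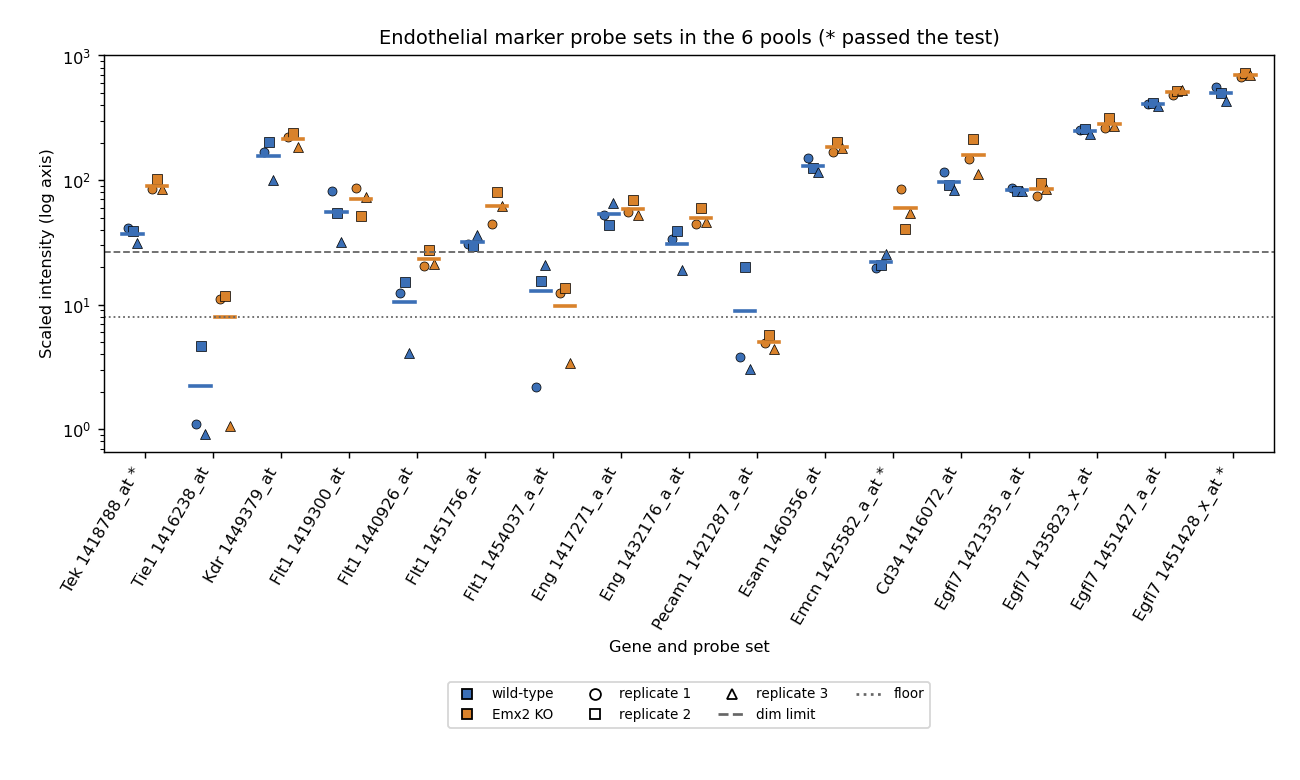
Scaled intensity (log axis) of the 17 endothelial marker probe sets in each of the 6 pools, with wild-type in blue, Emx2 KO in orange, a symbol per replicate and a horizontal bar for the group mean. The KO values of Tek, Emcn and the brightest Egfl7 probe set lie above all their wild-type values, while Tie1, Pecam1 and 2 Flt1 probe sets lie near or under the dim limit of 26.4 (dashed) and partly under the floor of 7.99 (dotted).

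The 3 genes that passed are shown with the 250 bases before each annotated RefSeq start (GRCm38.p6, read 5′ to 3′ on the gene's strand), because ETS family factors act at the promoters of many endothelial genes. Capitals mark AGGAAG or CGGAAG, letters that hold the ETS core, on either strand.
Tek (chr4:94739039-94739288, + strand): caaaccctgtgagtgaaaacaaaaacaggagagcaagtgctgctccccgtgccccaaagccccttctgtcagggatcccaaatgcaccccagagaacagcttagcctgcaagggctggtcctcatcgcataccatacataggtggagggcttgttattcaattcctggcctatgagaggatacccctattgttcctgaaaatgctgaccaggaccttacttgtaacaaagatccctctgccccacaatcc
Emcn (chr3:137340828-137341077, + strand): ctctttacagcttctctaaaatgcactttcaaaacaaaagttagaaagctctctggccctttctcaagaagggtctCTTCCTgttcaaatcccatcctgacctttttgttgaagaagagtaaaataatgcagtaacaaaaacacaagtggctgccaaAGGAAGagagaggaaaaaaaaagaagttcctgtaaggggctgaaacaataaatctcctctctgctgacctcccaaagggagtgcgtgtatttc
Egfl7, upstream start (chr2:26580833-26581082, + strand): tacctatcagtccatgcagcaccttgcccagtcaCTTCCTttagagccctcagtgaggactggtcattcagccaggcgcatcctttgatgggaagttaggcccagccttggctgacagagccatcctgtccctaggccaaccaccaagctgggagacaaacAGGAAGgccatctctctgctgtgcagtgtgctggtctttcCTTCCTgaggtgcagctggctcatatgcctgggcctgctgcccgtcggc
Egfl7, middle start (chr2:26583615-26583864, + strand): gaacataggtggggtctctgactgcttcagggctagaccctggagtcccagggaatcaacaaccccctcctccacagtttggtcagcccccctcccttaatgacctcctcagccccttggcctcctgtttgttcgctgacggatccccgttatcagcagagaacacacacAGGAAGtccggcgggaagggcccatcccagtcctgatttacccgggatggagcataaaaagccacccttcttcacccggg
Egfl7, downstream start (chr2:26586386-26586635, + strand): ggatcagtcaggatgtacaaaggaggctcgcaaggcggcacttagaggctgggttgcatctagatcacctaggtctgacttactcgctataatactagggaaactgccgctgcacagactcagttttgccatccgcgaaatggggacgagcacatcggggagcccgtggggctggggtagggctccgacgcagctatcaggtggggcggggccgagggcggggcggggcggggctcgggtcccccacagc
The Emcn window held 2 such matches, and the 3 Egfl7 windows held 3, 1 and 0 in the order shown. The Tek window held 0 of these 6-letter matches, though it held the shorter AGGAA on the opposite strand. Of the 10 genes, 8 matched a promoter entry, with 10 windows in all, and 7 of these windows in 6 genes (Cd34, Egfl7, Emcn, Eng, Flt1 and Tie1) held a match, compared with 39.2% of all 32851 windows of this length. The AGGAAG letters alone were in 7 of the 10 windows and in 29.5% of all. The CGGAAG letters were in the Tie1 window and in 13.6% of all. On both strands, the letters AGATAA of GATA factors were in 0 of the 10 windows and in 9.99% of all. The letters ACAATG of SOX factors were in 0 and in 10.7% of all. The forkhead letters TAAACA were in 0 and in 12% of all. The letters GGGCGG of Sp factors were in 3 windows and in 32.7% of all, and TATAAA in the Flt1 window and in 12.4% of all. These matches describe letters and not bound sites, and genes that passed and genes that did not were found on both sides.

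Tek, the angiopoietin receptor, was the only one of the receptor genes that passed. Its intensity was 41.1, 39.1 and 31.0 (wild-type replicates 1 to 3, the order used throughout) against 84.2, 102 and 84.1 (KO). All 3 KO pools were above all wild-type pools, by more than the spread within either group. The means were 37.1 ± 5.34 and 90.2 ± 10.4 (SD, n = 3 each), a log2 fold change of 1.29 (SE 0.24, limma adjusted p = 0.00834). Tek passed in each of the 6 fits that left out 1 pool, at log2 fold changes from 1.16 to 1.37, and did not pass when all dim probe sets were kept in the test (adjusted p = 0.091).

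Tie1, the orphan receptor that pairs with Tek, was not readable on these arrays. Its only probe set read 1.10, 4.68 and 0.912 (wild-type) against 11.1, 11.8 and 1.07 (KO), with 4 of the 6 values under the floor of 7.99 to which low intensities were raised. It was not tested.

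Kdr, the main signalling receptor for VEGF-A, read 169, 201 and 99.6 (wild-type) against 221, 237.5 and 186 (KO). The groups overlapped, KO replicate 3 lying below wild-type replicate 2. The means were 157 ± 52.0 and 215 ± 26.4 (log2 fold change 0.51, SE 0.24, adjusted p = 0.299), and Kdr did not pass.

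Flt1, a VEGF receptor that also binds placental growth factor and has a soluble form acting as a decoy, gave different values at its 4 probe sets. Probe set 1451756_at read 30.6, 29.7 and 36.1 (wild-type) against 44.0, 79.7 and 61.4 (KO). Its groups did not overlap, but it did not pass (0.91, SE 0.29, adjusted p = 0.113). Probe set 1419300_at read 81.3, 54.7 and 31.8 (wild-type) against 85.9, 51.8 and 72.8 (KO). Here the groups overlapped widely (0.40, SE 0.34, adjusted p = 0.616). The other two were too dim to be tested. Of these, 1440926_at read 12.3, 15.2 and 4.06 (wild-type) against 20.5, 27.6 and 21.4 (KO), with no overlap, and 1454037_a_at had means of 12.9 ± 9.67 and 9.81 ± 5.57. The transcript form behind each probe set is not known here. A comparison of the genotypes on the log2 ratio of 1451756_at to 1419300_at in each pool gave an exact permutation p of 0.5 (two-sided, 0.5 adjusted over 4 pairs of probe sets; 3 pools against 3 can give no p below 0.1).

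Eng was read by a pair of probe sets. Probe set 1432176_a_at read 33.9, 39.1 and 18.8 (wild-type) against 44.0, 59.2 and 46.1 (KO), with no overlap (log2 fold change 0.76, SE 0.33, adjusted p = 0.259). The brighter 1417271_a_at read 52.3, 43.9 and 65.3 (wild-type) against 55.7, 69.6 and 52.2 (KO), and its groups overlapped (0.14, SE 0.26, adjusted p = 0.84). Neither passed, and the log2 ratio of the pair, higher in KO by 0.61, did not pass (exact permutation p = 0.4, 0.5 adjusted over the 4 pairs).

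Of the junction and surface proteins, Emcn had the largest log2 fold change of the 17 probe sets. It read 19.6, 20.7 and 25.7 (wild-type) against 85.4, 40.4 and 54.5 (KO). Every KO pool was above every wild-type pool, with KO replicate 1 the highest. The means were 22.0 ± 3.24 and 60.1 ± 23.0 (log2 fold change 1.39, SE 0.33, adjusted p = 0.0306). The wild-type mean lay under the dim limit, so Emcn was tested only because of its KO signal. Emcn passed in 2 of the 6 fits that left out 1 pool, which omitted wild-type replicate 3 or KO replicate 2, and with KO replicate 1 omitted its log2 fold change was 1.10 (adjusted p = 0.163).

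Esam read 149, 125 and 116 (wild-type) against 167.5, 201 and 181 (KO). The groups did not overlap, with means of 130 ± 17.2 and 183 ± 16.8, and the probe set did not pass (log2 fold change 0.50, SE 0.18, adjusted p = 0.16). Cd34 read 116, 91.4 and 84.0 (wild-type) against 149, 214 and 112 (KO), where KO replicate 3 fell below wild-type replicate 1 (0.67, SE 0.25, adjusted p = 0.17). Pecam1, the classical marker of the endothelial junction, read 3.78, 19.9 and 3.07 (wild-type) against 4.95, 5.67 and 4.39 (KO). Of these 6 values 5 were under the floor, the probe set was not tested, and it says nothing about the level of Pecam1.

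Egfl7, the brightest of the markers, was read by 4 probe sets, all tested. Probe set 1451428_x_at read 555, 500.5 and 433 (wild-type) against 678, 728 and 703 (KO). The lowest KO pool stood above the highest wild-type pool, and the means of 496 ± 60.9 and 703 ± 24.8 differed by 0.51 on the log2 scale (SE 0.13, adjusted p = 0.0404). Probe set 1451427_a_at, at 408, 416 and 391 (wild-type) against 485, 515 and 531 (KO), was also separated but did not pass (0.33, SE 0.12, adjusted p = 0.174). The same held for 1435823_x_at, at 251, 256.5 and 233 against 264, 313 and 272 (0.19, SE 0.15, adjusted p = 0.567). The dimmest, 1421335_a_at, overlapped fully at 86.8, 81.7 and 81.6 (wild-type) against 74.4, 95.2 and 84.2 (KO) (0.02, SE 0.21, adjusted p = 0.981), and its sign turned under quantile and median scaling. The log2 ratio of 1451428_x_at to 1421335_a_at was 2.57 ± 0.14 in wild-type and 3.06 ± 0.13 in KO pools, without overlap (exact permutation p = 0.1, the smallest that 3 against 3 allow, and 0.2 adjusted over the 4 pairs).

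The call of Egfl7 is thus that of 1 probe set: with the tested probe sets of each gene averaged before the fit, Tek and Emcn passed and Egfl7 did not. Its ending, x_at, marks probes that can also bind other transcripts. It passed in 1 of the 6 fits that left out 1 pool, the fit without wild-type replicate 1, and failed with quantile scaling (adjusted p = 0.0527), with a common median (0.0688) and with the values as deposited (0.261).

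**Figure D2:**
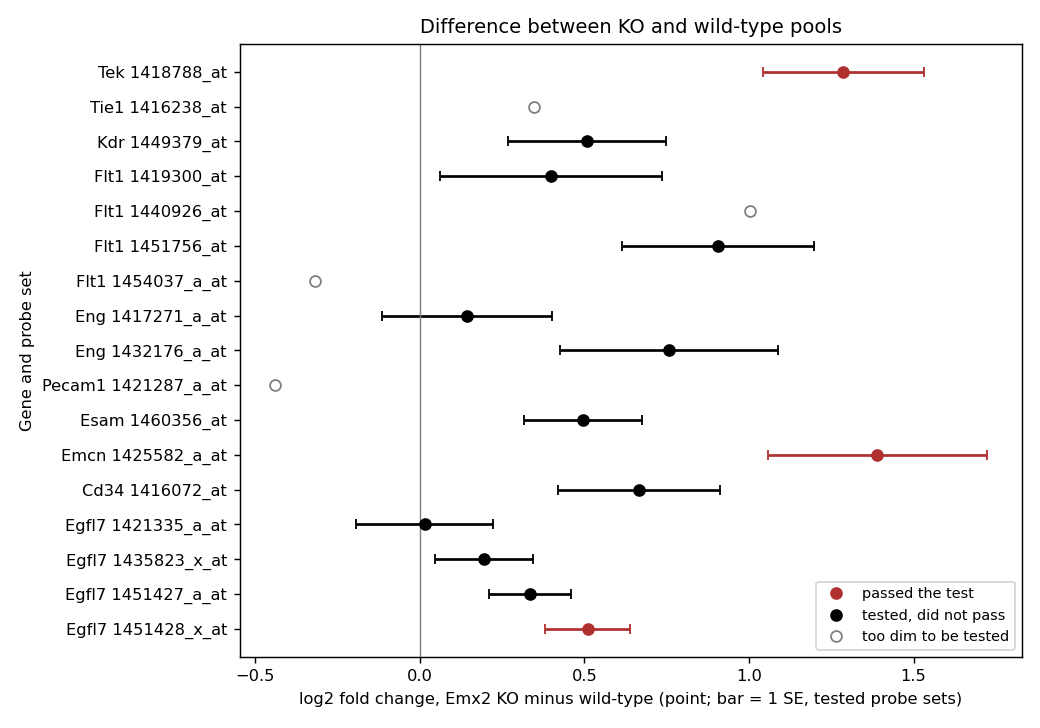
Log2 fold change (KO minus wild-type, horizontal axis) of the 17 endothelial marker probe sets, with 1 SE as a bar for those tested. Tek (1.29), Emcn (1.39) and Egfl7 1451428_x_at (0.51) passed (red), 10 were tested and did not pass (black), and 4 were too dim to be tested (open).

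KO replicate 2 gave the highest value in 10 of the 13 tested probe sets, and wild-type replicate 3 the lowest in 9. Expressed as the median deviation from the wild-type mean over the 10 genes, each at its brightest probe set, wild-type pools stood at 0.16, 0.01 and −0.19 and KO pools at 0.52, 0.60 and 0.39 on the log2 scale. The array of wild-type replicate 3 was the brightest as deposited (scale factor 0.829). That pool was the lowest in 12 of all 17 probe sets after scaling and in 4 of the 17 in deposited values. For wild-type replicate 1 these counts were 2 and 10. Without wild-type replicate 3 the median log2 fold change over the 17 probe sets was 0.36 in place of 0.50, and Tek and Emcn passed.

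Of the ligands and partners of these receptors, Angpt1, Vegfc, Flt4 and Nrp1 rose and none of those tested fell. Of 17 listed genes, each read by its brightest probe set, 16 were tested, 4 rose (Angpt1, Flt4, Vegfc and Nrp1), 0 fell and 12 did not pass, beside 2.93% of all 12315 tested genes called higher and 2.48% called lower. At an unadjusted p under 0.05, limma gave 6 higher and 0 lower (9.02% and 9.15% of all genes). The list's median log2 fold change was 0.37 over the 16 tested genes. Over all 17 it was 0.55, which is the value of Bmp10, a gene too dim to be tested with 4 of 6 values at the floor. The count of 4 was 2 with KO replicate 1 or KO replicate 2 left out. This list and those below were chosen with earlier results known, so their counts describe and do not test.

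Angpt1, the agonist ligand of Tek, read 380, 282 and 306.5 (wild-type) against 785, 772.5 and 884 (KO). The means were 323 ± 51.2 and 814 ± 60.9 (log2 fold change 1.34, SE 0.14, adjusted p = 0.00015), with no overlap. Angpt2, the context-dependent antagonist at Tek, did not pass, at 71.0 ± 6.40 and 52.0 ± 18.3 (−0.52, SE 0.29). Angpt2, like Vegfa and Bmp10, is named after its values were seen. Angpt1 is made by perivascular and mesenchymal cells rather than by endothelium.

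Vegfc, a ligand of Flt4 and Kdr, rose at 2 of its 3 probe sets. The brightest read 146, 143 and 147 (wild-type) against 254, 280 and 225 (KO) (0.80, SE 0.16, adjusted p = 0.0123), and 1440739_at gave 0.85 (SE 0.19, adjusted p = 0.0237). Flt4, its receptor, read 60.5, 68.2 and 61.4 (wild-type) against 127, 131 and 91.1 (KO) (0.86, SE 0.22, adjusted p = 0.0443), while a dimmer Flt4 probe set gave 0.34 (SE 0.38, adjusted p = 0.723).

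Nrp1, a co-receptor for VEGF-A that neurons and mesenchyme also express, rose at all 4 probe sets, by 0.57, 0.76, 0.54 and 0.71. Its brightest read 1142, 1098 and 990 (wild-type) against 1470, 1617 and 1712 (KO) (SE 0.11, adjusted p = 0.00746). Vegfa, the ligand of Kdr and Flt1, gave 193 ± 32.4 and 212 ± 18.7 at its brightest probe set (0.14, SE 0.18, adjusted p = 0.753). Its other probe set went the opposite way without overlap, from 196, 184 and 206.5 in wild-type to 147, 88.5 and 119 in KO pools (−0.76, SE 0.20, adjusted p = 0.0556).

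**Figure D3:**
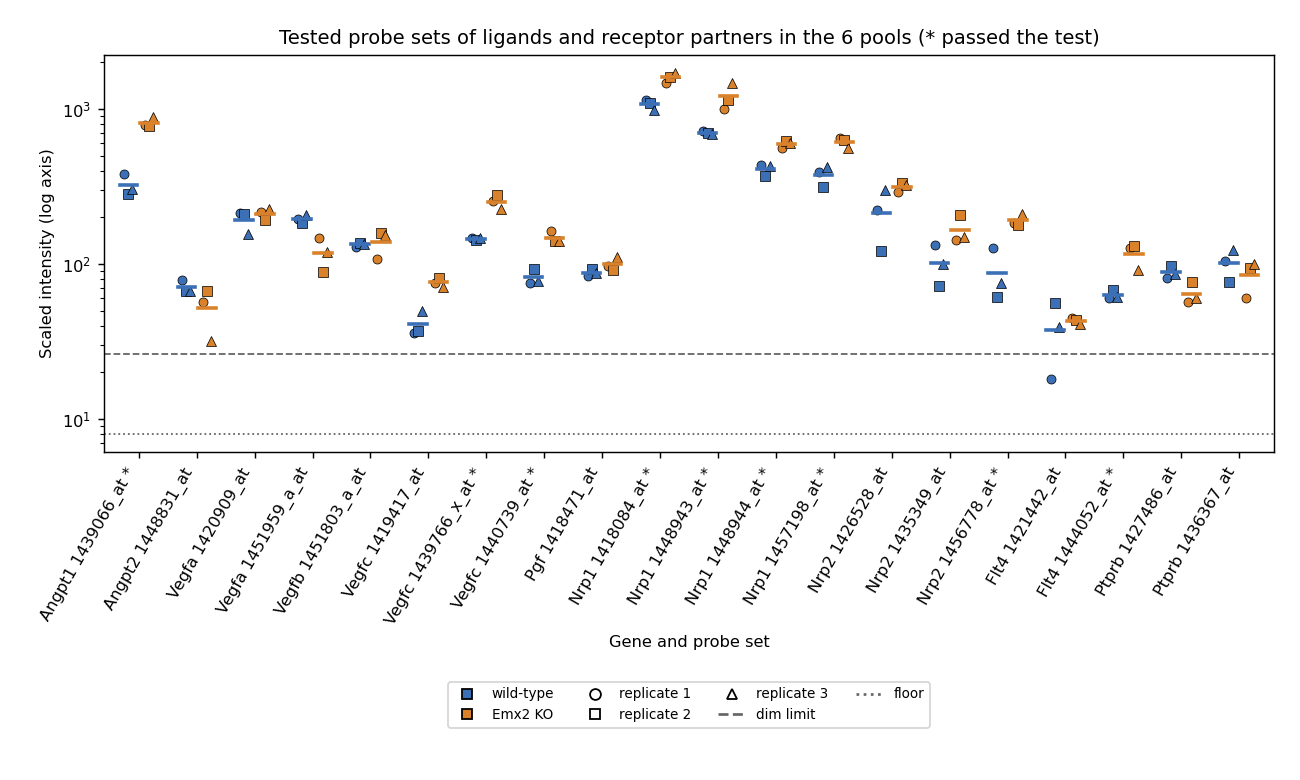
Scaled intensity (log axis) of the tested probe sets of 10 ligand and receptor-partner genes in the 6 pools, drawn as for the markers. Angpt1 (323 against 814), Vegfc and all 4 Nrp1 probe sets lie higher in every KO pool than in any wild-type pool, while both Vegfa probe sets differ in direction and neither passed.

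Other genes of the endothelial surface and junctions rose in part. Of 24 listed, 20 were tested, 4 rose (Mmrn2, Sema6a, Aplnr and Cldn5), 0 fell and 16 did not pass, beside 2.93% of all tested genes called higher and 2.48% called lower. At an unadjusted p under 0.05 in limma's test 11 were higher and 0 lower, against 9.02% and 9.15% of all genes. Mmrn2, a matrix glycoprotein of endothelium, read 96.2, 147 and 79.5 (wild-type) against 213, 261.5 and 183 (KO) (log2 fold change 1.06, SE 0.24, adjusted p = 0.0209). Its dimmer probe sets 1437123_at (0.73, limma adjusted p = 0.367) and 1420276_x_at (0.22, adjusted p = 0.67) overlapped and did not pass. Probe set 1439518_at, not tested, gave 1.19 without overlap. The semaphorin gene Sema6a gave 0.89 (SE 0.20, adjusted p = 0.0206), the apelin receptor gene Aplnr 0.86 (SE 0.20, adjusted p = 0.0236) and the junction gene Cldn5 0.85 (SE 0.22, adjusted p = 0.0411). The dimmer Aplnr probe set 1423037_at gave 0.67 without overlap and did not pass (limma adjusted p = 0.124). The other Sema6a probe sets were too dim to be tested. Cdh5, the cadherin that defines endothelial junctions, read 41.5, 52.9 and 40.9 (wild-type) against 62.5, 72.2 and 66.7 (KO), without overlap, and did not pass (0.58, SE 0.24). Cdh5 is named here after its values were seen, and its dimmer probe set 1422047_at, not tested, gave −0.35 with overlap. Of the 24 genes, 19 had a positive log2 fold change and 5 a negative one. The 5, named for their sign, were Vwf (−0.32) and Ushbp1 (−0.30), both not tested, Gpihbp1 (−0.06), Nos3 (−0.06) and Robo4 (−0.01). With 1 pool left out this count of 4 became 1 (wild-type replicate 1), 2 (wild-type replicate 3) or 0 (KO replicate 1 or KO replicate 2).

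Transcription factors of the endothelial lineage went both ways. Of 17 tested, 3 rose (Ets2, Mef2c and Nr2f2), 1 fell (Gata2) and 13 did not pass, where 2.93% of all tested genes were called higher and 2.48% lower. Ets2, an ETS factor found in many cell types, went from 508 ± 51.6 to 917 ± 98.3 (0.85, SE 0.13, adjusted p = 0.00199), and Nr2f2, a factor of veins that is also abundant in mesenchyme, from 1987 ± 113 to 2588 ± 110 (0.38, SE 0.09, adjusted p = 0.0277). Mef2c gave 0.72 (SE 0.17, adjusted p = 0.0269). Gata2, which acts in endothelium and blood progenitors and in urogenital mesenchyme, read 696, 769 and 499 (wild-type) against 227, 296 and 298 (KO), and so fell by 1.25 on the log2 scale (SE 0.18, adjusted p = 0.00134). Its other probe set fell by 1.60. At an unadjusted p under 0.05, limma gave 6 genes of this list higher and 2 lower (9.02% and 9.15% of all genes). The 2 lower were Gata2 and Sox7. Sox7, named after its values were seen, went from 51.0 ± 8.25 to 31.1 ± 4.72 without overlap and did not pass (−0.71, SE 0.28, limma adjusted p = 0.204). Tal1 (0.15), Erg (0.05) and Lmo2 (−0.05), also named after their values were seen, did not pass. Leaving out wild-type replicate 1, or any of the KO pools, lowered the count of 4 to 2.

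Markers of other cell types that such tissue can hold were read in the same pools. Of 13 mural genes, which mark the contractile cells around vessels, 10 were tested, and Abcc9 (1.38, SE 0.33, adjusted p = 0.0329) and Pdgfrb (0.85, SE 0.11, adjusted p = 0.000786) rose while Cspg4 fell by 1.14 (SE 0.16, adjusted p = 0.00138), where 2.93% of all tested genes were called higher and 2.48% lower. Their summed intensity was 4837 to 5339 in wild-type and 5656 to 6233 in KO pools. The median log2 fold change was 0.20 over all 13 genes and 0.15 over the 10 tested. Rgs5, a defining pericyte gene, gave 1938 ± 179 and 2056 ± 62.2 and did not pass. Rgs5 too is named after its values were seen.

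Of 16 mesenchymal genes 14 were tested, 9 rose and 0 fell, against 2.93% and 2.48% of all tested genes. In limma's test 11 were higher and 0 lower at an unadjusted p under 0.05, against 9.02% and 9.15%. Their summed intensity was 14590 to 16390 in wild-type and 21420 to 22720 in KO pools. The median log2 fold change was 0.62 over all 16 genes and 0.72 over the 14 tested. Twist1 (1.75), Osr1 (1.29), Postn (1.10) and Cdh11 (1.00) changed most. Of the 16 genes, 13 had a positive log2 fold change and 3 a negative one. The 3, named for their sign, were Pdgfra (−0.11), Lum (−0.03) and Meox2 (−0.09, not tested), and none passed.

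Blood markers were present in all pools. Of the erythroid genes 10 of 14 were matched to a probe set by symbol, 9 were tested and 0 passed in limma's test, with 1 higher and 0 lower at an unadjusted p under 0.05. Over all tested genes 2.93% were called higher and 2.48% lower, and 9.02% and 9.15% reached that unadjusted p. With 9 genes, a count of 0 lies near these shares. The summed intensity is therefore given as well. The sum of the erythroid genes, mostly globin, was 36170 to 38180 in wild-type and 37030 to 38490 in KO pools. By median deviation, wild-type replicate 3 was the highest pool for this list (0.60). Of the erythroid genes, 1 passed with quantile scaling and 2 with wild-type replicate 3 omitted. Hba-x gave 0.24 (SE 0.08, adjusted p = 0.11) and Hbb-y −0.12 (SE 0.07, adjusted p = 0.463). Of 17 genes of white blood cells, platelets and progenitors 13 were tested, and Csf1r, the receptor of macrophages, rose from 172 ± 44.3 to 331 ± 49.9 (0.96, SE 0.20, adjusted p = 0.0126), a call lost when KO replicate 2 was omitted. This was the only call of the list, beside 2.93% of all tested genes called higher and 2.48% called lower. Tyrobp, next by p, gave 0.68 (SE 0.34, adjusted p = 0.328). Aif1, also named after its values were seen, lay at the floor in all 6 pools. Cd68, a further macrophage marker named after its values were seen, read 54.4, 58.4 and 55.5 (wild-type) against 31.7, 46.1 and 42.4 (KO). All its KO pools lay below all wild-type pools, and it did not pass (−0.50, SE 0.26, limma adjusted p = 0.362). Of the 17 genes, 11 had a positive log2 fold change and 5 a negative one. The sums of this list were 1113 to 1184 in wild-type and 1235 to 1702 in KO pools.

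Markers of the coelomic epithelium and gonadal primordium, which the dissection aimed at, were bright, with sums of 27040 to 29560 in wild-type and 29460 to 32920 in KO pools. The higher KO sums rest largely on Tbx18, whose mean went from 518 to 4897. Of the 15 markers, 14 were tested, 5 rose and 3 fell (2.93% and 2.48% of all tested genes). The median log2 fold change was 0.02 over all 15 and 0.07 over the 14 tested. Tbx18 (3.29) and Upk1b (1.44) rose and Aldh1a1 (−1.26) and Nr5a1 (−1.22) fell. The same pools also differed in markers of fetal sex: Xist read 34.6 ± 30.8 in wild-type and 9512 ± 326 in KO pools, and Eif2s3y, Kdm5d and Uty were each lower in all KO pools. Sex of the pooled fetuses and genotype therefore cannot be told apart for any endothelial marker. The part that the amount of mesenchyme, macrophages or mural cells in the dissected tissue has in the endothelial differences was not tested.

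**Figure D4:**
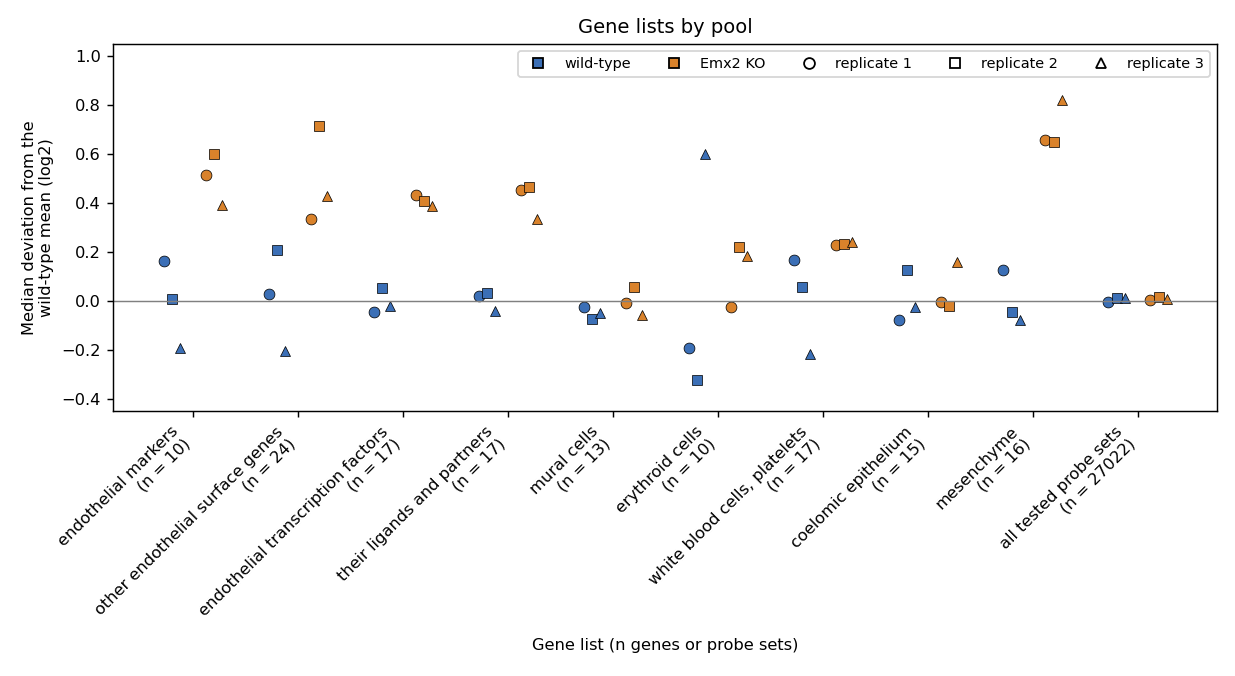
Median deviation from the wild-type mean (log2 scale) of each gene list in each pool, genes read by their brightest probe set, with wild-type in blue and Emx2 KO in orange. KO pools lie above all wild-type pools for the 3 endothelial lists, for ligands and partners, for white blood cells (KO 0.23 to 0.24, wild-type up to 0.17) and, at 0.65 to 0.82, for mesenchyme, while the mural list, the coelomic epithelium list, the erythroid list and all 27022 tested probe sets do not separate the genotypes.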

How the data were processed

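Epithelium of the gonadal primordium was cut from sections of E10.5 fetuses, some sections being stained for GATA4 to find it, and each pool gave 15 ng of total RNA, amplified in 2 rounds and labelled with biotin, per the labels' protocols. The authors deposited 1 linear intensity per probe set and array for 6 arrays of 1 colour. The submitters' processing notes name GCOS 1.2, with an algorithm and scaling not given in the sources used here. Arrays as deposited were not on a common level, with 2% trimmed means of 254 to 373 in wild-type and 289 to 356 in KO pools.

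Each array was scaled to a common 2% trimmed mean of 309.2, because the arrays differed by more than 5%. Intensities under the 20th percentile (7.99) were set to that floor before taking log2. Control probe sets (64) and the dimmest 40% by mean were dropped. A two-sided limma test (version 3.58.1, R 4.3.3) with a variance trend on intensity compared KO with wild-type; p-values of the 27022 probe sets kept were adjusted by Benjamini-Hochberg, and 0.05 was the threshold. For probe sets left out of the test, log2 fold changes come from a fit without the filter and carry no p. The procedure was tested on simulated data. Names came from the platform annotation, in which 34958 probe sets had 1 symbol, 932 several and 9211 none; 34754 of the first matched RefSeq by gene identifier. No probe set with several symbols named a marker.

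The genes and lists were chosen with earlier results of these data known. For each list, up to 4 called genes by size of change are named, filled to 2 by p; Emx2, as the targeted gene, and the genes marked as named after their values were seen fall outside this rule. Log2 ratios of probe sets of 1 gene were tested by exact permutation. Alternatives tried were other scalings, floors, filters and variance models, the replicate number as a block, and each pool left out in turn. Gene means were also tried, as was leaving out probe sets ending in _x_at, _s_at or _a_at. Leaving out both filter and floor was added after seeing the data.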

Additional observations from a re-analysis of the deposited data

How the results depend on the processing

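Of the 3 marker probe sets that passed, Tek, Emcn and Egfl7 1451428_x_at kept their direction under every alternative run; Tek failed only with no filter (adjusted p = 0.091) and with neither filter nor floor (0.056), which was chosen after seeing the data. The count of 3 was 0 with no filter, 0 with neither filter nor floor, 1 with the lowest 60% left out (where Tek and Emcn were not tested), 1 without an intensity trend, 1 without probe sets ending in _x_at, _s_at or _a_at (which removes those of Emcn and Egfl7), and 1 to 2 with 1 pool left out. It was 2 with the replicate number as a block (Tek and Emcn); same-numbered pools did not deviate together (r of −0.07, 0.04 and −0.05), so the numbers do not pair them. Egfl7 1421335_a_at, which did not pass, turned sign with quantile scaling (−0.0207), with a common median (−0.0136), and with wild-type replicate 3 (−3.2e-05) or KO replicate 2 (−0.0737) left out. All called probe sets, 1264 in the main setting, were 151 with no filter, 490 with neither filter nor floor and 541 without an intensity trend, and 721 to 1687 with 1 pool left out. With the values as deposited all tested probe sets had a median log2 fold change of 0.10, that of the 17 marker probe sets 0.59, and 68.4% of calls were higher, compared with 58.7% after scaling; with no filter this share was 70.9%.

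With no filter, the called genes were 0 for other endothelial surface genes, 0 for transcription factors, 0 for ligands and partners, 0 for white blood cells, 2 for coelomic epithelium and 2 for mesenchyme. One erythroid gene was called with quantile scaling. With 1 pool left out, the counts ran from 0 to 3 for other endothelial surface genes, from 2 to 5 for transcription factors, from 2 to 4 for ligands and partners, from 2 to 3 for mural cells, from 0 to 2 for erythroid cells, from 0 to 1 for white blood cells, from 6 to 9 for coelomic epithelium and from 6 to 8 for mesenchyme. Signals near the dim limit, as for Emcn, Tie1, Pecam1 and part of Flt1, limit what these arrays can show. Log2 fold changes of Tie1 and of Flt1 1440926_at, which were not tested, ran from 0.00 to 1.59 and from 0.00 to 1.33 over the alternatives.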
